A study of Rattus norvegicus with 17 samples.

Results

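Arntl2 (gene ENSRNOG00000001830 in the deposited tables, named Bmal2 in RefSeq) was followed in kidney RNA of rats with sub-total nephrectomy (SNx) and of control rats. It is 1 of 23487 genes in the count tables, and it was chosen by its estimated counts in these libraries, near 0 in every control and spread widely among the SNx rats. The levels of Arntl2 in the 2 groups and their spread among the SNx rats are therefore a description and carry no test. Of the 23487 genes, 2007 could be given a symbol. A search among these for symbols starting with Per, Cry, Clock, Npas2, Nr1d, Dbp or Arntl found 6, of which 4 are crystallin genes and relatives outside the clock (Cryab, Cryl1, Cryz and Crym), so that Arntl was the only other clock gene found by this search. A wider set of 4 hand-written clock lists held 31 symbols, and 6 members other than Arntl2 had an identifier: Arntl, Bhlhe41, Timeless, Hlf, Csnk1e and Skp1.

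The tissue was kidney of male Wistar Han rats. Per the study's methods, a part of it was fixed for histology and the rest was frozen for proteomics or transcriptomics. Each library was taken to be 1 rat, since the labels name no rat. In SNx, part of the right kidney is resected and the left kidney is removed later, after which the remnant fails slowly. The 12 SNx rats were compared with 5 rats labelled NoOp, which the study's methods call sham for this cohort. SNx rats were killed on different days after surgery, guided by serum creatinine and proteinuria, and the labels say neither on which day nor how far each rat had progressed. By the study's account, fewer SNx rats of this cohort met its functional threshold than there are SNx libraries here, and the labels do not say which libraries are theirs. Neither the rats' age nor the hour of death is given in the sources used here, which bears on every clock gene described. Library totals lay between 19210434 and 30784070 counts in SNx and between 30454170 and 43876369 in NoOp, so the controls were sequenced more deeply. The library numbers in the labels fall into a lower and a higher range, with 6 SNx libraries in each and all controls in the lower.

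The circadian clock is a transcription loop that runs in most cells. A heterodimer of 2 basic helix-loop-helix PAS proteins, CLOCK (or NPAS2) with BMAL1, the product of Arntl, binds E-box sequences and drives the Per, Cry and Nr1d repressors, which in turn shut the loop down with a period of about a day. ARNTL2 (BMAL2) is the paralog of BMAL1 and can also pair with CLOCK. It has been described in endothelial and tumour cells, among others. In the kidney, the clock is known for the daily rhythm of tubular transport.

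The sequence just before each annotated start is shown for the 2 paralogs, since Arntl2 was near 0 in the controls and Arntl was not, and for Bhlhe41, a repressor of the loop that lies on the same chromosome as Arntl2. The windows are the 250 bases upstream of the RefSeq start in build GRCr8, read on the strand of the gene. The deposited data were made on build Rn6, no coordinates were carried between the builds, and which start these kidneys used is not known. Capitals mark matches on either strand to 4 motifs, picked after a first look at the windows: the E-box CACGTG, the half-site AGGTCA of nuclear receptors, the D-box TTATGTAA bound by Hlf and its relatives, and GCGTG, the core of the xenobiotic response element (CACGC on the opposite strand). The Arntl2 window lies at chr4:181437341-181437590 on the plus strand, the Arntl window at chr1:176766078-176766327 on the plus strand and the Bhlhe41 window at chr4:180569356-180569605 on the minus strand.
Arntl2: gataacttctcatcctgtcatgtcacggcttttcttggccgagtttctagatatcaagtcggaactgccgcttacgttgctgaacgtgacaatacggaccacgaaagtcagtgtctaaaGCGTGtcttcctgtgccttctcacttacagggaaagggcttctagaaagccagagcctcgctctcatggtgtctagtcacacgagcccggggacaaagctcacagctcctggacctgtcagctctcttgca
Arntl: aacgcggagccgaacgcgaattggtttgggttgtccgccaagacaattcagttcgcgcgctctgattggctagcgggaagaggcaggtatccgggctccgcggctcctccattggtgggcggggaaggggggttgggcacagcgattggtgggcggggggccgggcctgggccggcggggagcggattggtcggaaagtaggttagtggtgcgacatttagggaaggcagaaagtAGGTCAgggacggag
Bhlhe41: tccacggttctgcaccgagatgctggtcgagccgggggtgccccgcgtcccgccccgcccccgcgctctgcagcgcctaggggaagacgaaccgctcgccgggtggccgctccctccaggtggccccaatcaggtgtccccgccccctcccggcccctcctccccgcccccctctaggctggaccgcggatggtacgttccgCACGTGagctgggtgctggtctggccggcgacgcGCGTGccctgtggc

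The Arntl2 window held a single GCGTG core and none of the other 3 motifs, with 51.6% G and C and 12 CpG dinucleotides. The Arntl window held a single AGGTCA half-site close to the start, 64% G and C and 23 CpG. The Bhlhe41 window held an E-box and a GCGTG core, 75.2% G and C and 29 CpG. Over 33469 windows of the same length the median was 51.2% G and C and 5 CpG. Of these windows 5.59% held the E-box, 14.1% the half-site, 0.828% the D-box and 25.9% the GCGTG core, so that the core in front of Arntl2 is a common match. Windows were found for 10 of 14 clock, clock-controlled and Ahr target genes, and the E-box also stood in those of Klf15 and Slc9a3. A match is a string of letters and not evidence of binding.

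Arntl2 had between 0 and 3 estimated counts in the controls. NoOp 1 to NoOp 5 had 2, 1, 2, 0 and 3 counts, 8 in all, or 0.0543 ± 0.0394 CPM (counts scaled to library size, SD, n = 5). The 12 SNx libraries had from 26 to 351 counts with a median of 111.5, or 5.94 ± 4.95 CPM (SD, n = 12). SNx 1 and SNx 5 stood highest, with 351 and 337 counts (16.8 and 14.2 CPM). SNx 4 and SNx 11 stood lowest, with 35 and 26 counts (1.25 and 1.21 CPM). The groups did not overlap, and the lowest SNx library had more counts than the 5 controls together.

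Because every control was at 3 counts or fewer, a fold can only be given as a lower bound against a floor of 3 counts in each control library, which equals 0.0969 CPM on average. By that bound the mean level of Arntl2 was at least 61.4-fold higher in SNx. The bound was at least 174-fold for SNx 1 and at least 12.5-fold for SNx 11. On the log2 CPM scale (prior count of 2) the level was 2.17 ± 1.17 in SNx and -3.02 ± 0.48 in NoOp, where the control value is set largely by the prior count. These are bulk samples, so more cells with the transcript and more transcript per cell cannot be told apart.

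Within SNx the highest library was 13.9 times the lowest. In order of CPM the libraries were SNx 1, 5, 6, 8, 10, 7, 3, 12, 2, 9, 4 and 11. The exact 95% Poisson intervals overlapped in 8 of the 11 neighbouring pairs in this order. They cover counting error only and compare libraries, not rats, since 1 library per rat was assumed and the spread within a rat is not known. The 6 SNx libraries of the lower number range had 2.48 ± 1.42 log2 CPM and the 6 of the higher range 1.85 ± 0.86, and both ranges held libraries near the bottom of the order.

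**Figure D1:**
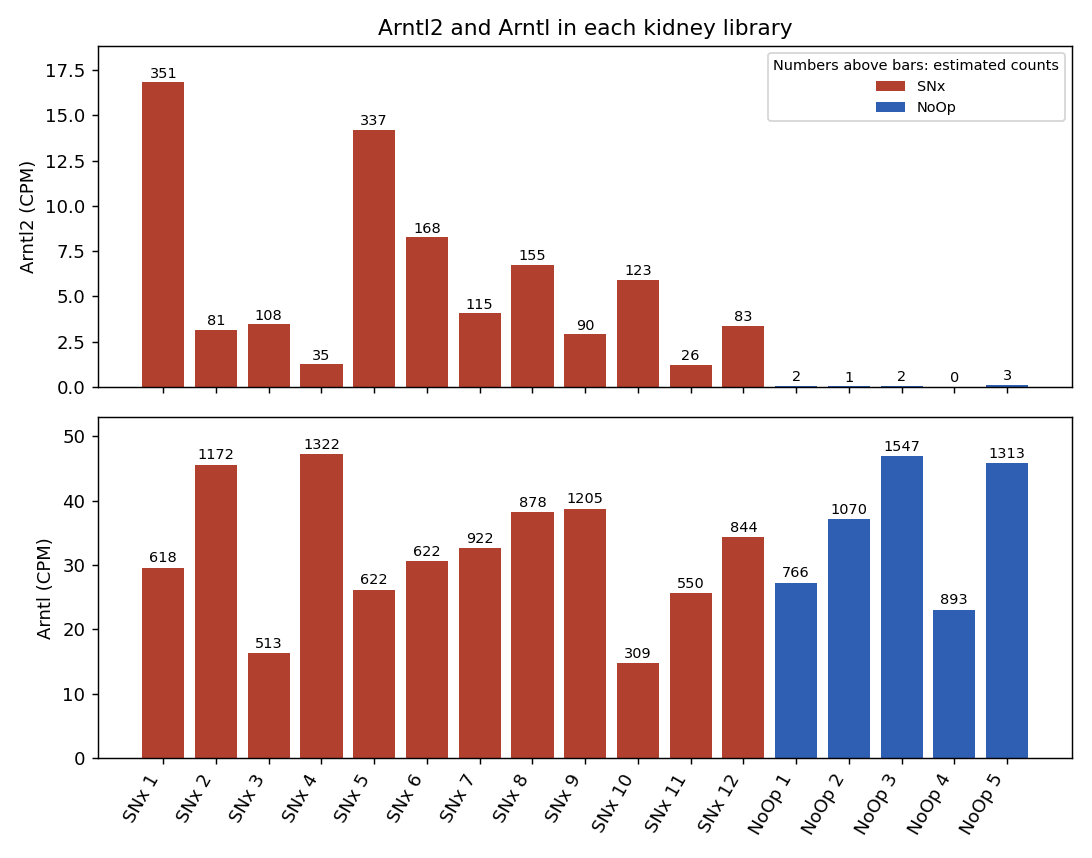
Arntl2 (upper panel) and Arntl (lower panel) in CPM for each of the 12 SNx libraries (red) and 5 NoOp libraries (blue), with the estimated counts above the bars. Arntl2 lay between 26 and 351 counts in SNx and at 3 or fewer in NoOp, while Arntl lay between 309 and 1322 in SNx and between 766 and 1547 in NoOp.

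Near-absence in the controls was common, and a rise above it in every SNx library was not. Among all genes counted, 6936 had 3 counts or fewer in each control, and 43 of these had more than 3 counts in all 12 SNx libraries. Arntl2 ranked 6th of the 43 by mean SNx count (139 counts). Of the 43, 11 had a symbol, and those with a higher mean were Ces5a, a carboxylesterase, the cytokines Il19 and Il24 of the interleukin-10 family, the matrix metalloproteinase Mmp7 and the tenascin Tnn. Their mean counts were 322 for Ces5a, 314 for Il19, 255 for Il24, 247 for Mmp7 and 142 for Tnn.

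The 11 genes with a symbol did not all share 1 order among the SNx rats. Il24 followed Arntl2 closely across the 12 libraries, with a Pearson's r of 0.94 on log2 CPM, as did Fosl1, a subunit of the AP-1 transcription factor (0.92), the chemokine Cxcl6 (0.91) and Il19 (0.84). Among the rest, the value was 0.82 for Rasgrf1, 0.81 for Slc7a11, 0.67 for Tmem59l and 0.51 for Tnn. It was 0.32 for Mmp7 and -0.25 for Ces5a, which had from 4 to 1299 counts in SNx. All of these values come from the same libraries, so a shared depth enters each of them.

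The other clock genes were measured well in all libraries. Between SNx and NoOp, 58% of 15438 tested genes passed an adjusted p of 0.05 (edgeR quasi-likelihood test, Benjamini-Hochberg), 30.3% being higher and 27.7% lower in SNx, and 23.1% did not overlap between the groups. Of the 6 clock genes 4 passed, 2 higher (Timeless and Csnk1e) and 2 lower (Hlf and Skp1), and 2 did not overlap (Timeless and Hlf). A count of 4 in 6 says little beside the share over all genes. The 6 are also the members to which the study's lists of changed transcripts gave a symbol, from its first cohort and for Hlf from both, so they are not a neutral sample of the clock.

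Arntl, the activator of the loop, had between 309 and 1547 counts in the 17 libraries. Its level was 4.91 ± 0.52 log2 CPM in SNx (3.90 to 5.56, median 4.98) and 5.12 ± 0.45 in NoOp (4.77, 5.22, 5.55, 4.53 and 5.52). The groups overlapped almost fully, with 1 SNx library above all controls and 2 below. The log2 fold change was -0.19 (SE 0.24, adjusted p = 0.51). This p does not show that the levels were alike.

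For every 100 Arntl counts a library held between 2.65 and 56.8 Arntl2 counts in SNx and between 0 and 0.261 in NoOp. The ratio is not one of transcript numbers, since the counts are not per length, but it can be compared between libraries. It was 56.8 in SNx 1 and 54.2 in SNx 5, then 39.8 in SNx 10, where Arntl itself was at its lowest (309 counts). It was 2.65 in SNx 4, where Arntl2 was low and Arntl at its highest among SNx (1322 counts).

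The repressors differed from each other. Bhlhe41 (DEC2) binds E-boxes and damps the loop. It had 2.54 ± 0.61 log2 CPM in SNx (1.66 to 3.65, median 2.58) and 2.10, 1.50, 1.77, 2.96 and 1.85 in the controls, with 3 SNx libraries above all controls. Its log2 fold change of 0.53 (SE 0.31, adjusted p = 0.16) did not pass. Without NoOp 4, the control with the highest Bhlhe41 and the lowest Arntl, it was 0.85 with an adjusted p of 0.037 in the same edgeR test. Timeless, which in mammals acts mainly at replication forks, had 3.82 ± 0.30 log2 CPM in SNx (3.35 to 4.26, median 3.86). The controls had 3.03, 3.13, 3.06, 2.53 and 2.87, and all 12 SNx libraries stood above them. Its log2 fold change was 0.91 (SE 0.16, adjusted p = 0.00016).

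Hlf, an output factor of the clock that binds D-boxes, moved furthest of the 6. It had 2.33 ± 1.15 log2 CPM in SNx (0.60 to 3.78, median 2.52). The controls were tight at 4.47, 4.56, 4.21, 4.40 and 4.24, and all 12 SNx libraries stood below them. The log2 fold change was -1.68 (SE 0.43, adjusted p = 0.0034).

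Of the enzymes that set the life of PER and CRY proteins, Csnk1e, the kinase CK1-epsilon, had 5.74 ± 0.34 log2 CPM in SNx and 5.20 ± 0.09 in NoOp. Its log2 fold change was 0.58 (SE 0.15, adjusted p = 0.0046), and 11 of 12 SNx libraries stood above all controls. Skp1, a subunit of SCF ubiquitin ligases in general, had 7.33 ± 0.59 in SNx and 8.31 ± 0.12 in NoOp. Its log2 fold change was -0.88 (SE 0.24, adjusted p = 0.0050), with 11 of 12 SNx libraries below all controls. Against the 6 SNx libraries of the lower number range alone, the log2 fold changes were 0.95 for Timeless, -1.89 for Hlf, 0.65 for Csnk1e and -1.10 for Skp1, each past the threshold, and Bhlhe41 also passed there (0.86, adjusted p = 0.029). The higher range holds no control, so its 6 SNx libraries were set against the same controls of the lower range. The log2 fold changes were then 0.88 for Timeless, -1.48 for Hlf, 0.49 for Csnk1e and -0.69 for Skp1, each past the threshold. Bhlhe41 was at 0.094 there (edgeR adjusted p = 0.81) and did not pass.

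**Figure D2:**
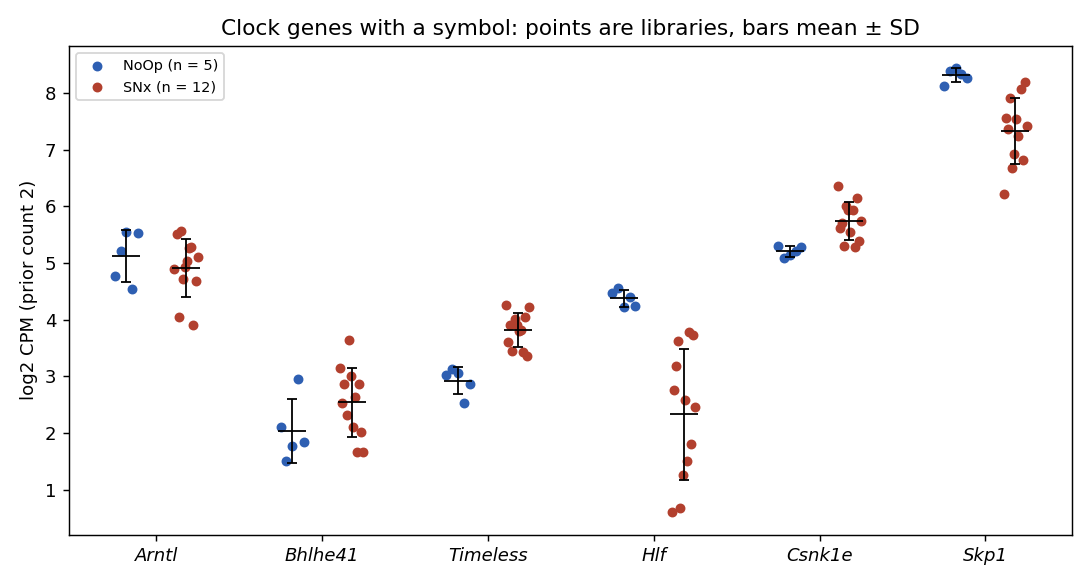
Levels of the 6 other clock genes in log2 CPM, 1 point per library, with NoOp in blue (n = 5) and SNx in red (n = 12) and black bars for mean ± SD. Timeless lies wholly above and Hlf wholly below the controls, Csnk1e and Skp1 do so in 11 of 12 SNx libraries, and Arntl and Bhlhe41 overlap.

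Genes reported to lie under the clock moved in both directions. Of 17 clock-controlled genes listed, 5 had an identifier, and all passed, 2 higher and 3 lower in SNx, where 58% of all tested genes passed (30.3% higher and 27.7% lower). These 5 too have a symbol only because the study listed them as changed, so their count is no evidence about genes under the clock. The growth regulator Myc rose by 2.33 (SE 0.36) and the cell cycle inhibitor Cdkn1a by 1.09 (SE 0.23). Klf15, a transcription factor of amino acid metabolism, fell by 1.57 on the log2 scale (SE 0.33), the proximal sodium-hydrogen exchanger Slc9a3 fell by 1.32 (SE 0.41) and the taurine transporter Slc6a6 fell by 0.81 (SE 0.11). The groups did not overlap for 4 of the 5, Cdkn1a being the exception, as they did not for 23.1% of all tested genes.

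Ahr, the dioxin receptor, belongs to the same protein family as ARNTL2. Of 6 Ahr targets listed, 2 had an identifier, and these went apart. Cyp1a1 had -1.10 to 3.82 log2 CPM in SNx (median 0.86) and 6.10 to 6.74 in NoOp, a log2 fold change of -4.04 (SE 0.68, adjusted p = 0.00013). Cyp1b1 had 2.65 to 5.46 in SNx (median 3.67) and -0.14 to 0.84 in NoOp, a log2 fold change of 3.38 (SE 0.43, adjusted p = 1e-05). For neither gene did the groups overlap, as they did not for 23.1% of all tested genes. Both have a symbol only because the study listed them as changed, so they are no evidence about Ahr targets in general. None of the 15 other bHLH-PAS genes listed had an identifier, so the partners of ARNTL2 were not analysed here.

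The grading of Arntl2 among the SNx rats was then set against other measures in the same 12 libraries. In all, 16 relations were computed, of which 14 are reported, each with two-sided permutation tests (100000 resamples) and Benjamini-Hochberg adjustment over the 16. They need a background, since much of the transcriptome was graded in these rats. Over the 13185 genes that averaged 1 log2 CPM or more, 64% had an r with Arntl2 above 0.5 or below -0.5, 3.12% had an r above 0.9 and 7.08% had an r below -0.9. Of the 14 reported, 10 passed by r, and the same 10 passed by Spearman's rho. The p of rho lay between 1e-05 and 0.024 for these 10 (adjusted 8e-05 to 0.035) and between 0.050 and 0.99 for the other 4 (adjusted 0.066 to 0.99).

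No relation of Arntl2 with its paralog passed the test. The r with Arntl was -0.24 (rho -0.36, p = 0.46, adjusted p = 0.49), and it was -0.25 without SNx 1 and SNx 5, the 2 libraries farthest from the median of Arntl2. SNx 4 and SNx 2, near the bottom for Arntl2, had the most Arntl (5.56 and 5.51 log2 CPM), while SNx 10 and SNx 3, in the middle of the order, had the least (3.90 and 4.04).

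Hlf ran opposite to Arntl2, with an r of -0.95 (rho -0.94, p = 1e-05, the smallest the resamples can give, adjusted p = 5.33e-05). Without SNx 1 and SNx 5 the r was -0.90. Within the lower number range it was -0.97 (exact permutation p = 0.0042, n = 6) and within the higher range -0.88 (exact permutation p = 0.017, n = 6). After adjustment over the 16 relations the exact permutation p was 0.017 in the lower range and 0.089 in the higher, where the relation therefore no longer passed. Of the 10 relations that passed over all 12 libraries, 9 passed after adjustment within the lower range (all but Cyp1a1) and 0 within the higher. Hlf was at 0.60 and 0.67 log2 CPM in SNx 1 and SNx 5, the libraries with the most Arntl2, and at 3.63 and 3.72 in SNx 4 and SNx 11, those with the least. Of the 13185 genes 1.82% had an r with Arntl2 at or below that of Hlf. Among them were the proximal tubule markers Aqp1 (-0.96) and Slc3a1 (-0.95), and Klf15 (-0.95).

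The clock genes Csnk1e, Timeless and Bhlhe41 were higher where Arntl2 was higher. For Csnk1e the r was 0.89 (rho 0.87, p = 0.00013, adjusted p = 0.00042), 0.83 without SNx 1 and SNx 5, and 0.96 and 0.77 within the lower and higher range. For Timeless it was 0.77 (rho 0.78, p = 0.0037, adjusted p = 0.0066), 0.69 without these 2, and 0.92 and 0.64 within the ranges. For Bhlhe41 it was 0.74 (rho 0.83, p = 0.0065, adjusted p = 0.0095), but it was 0.53 without these 2, and 0.90 and 0.62 within the ranges. At least that high an r with Arntl2 was found in 4.13% of genes for Csnk1e, 14.1% for Timeless and 16.5% for Bhlhe41, so the last 2 stood within a broad crowd. Skp1 was not among the 16 relations and has no test here. As a description its r was -0.93 (rho -0.95), at or below which lay 4.04% of genes.

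Cyp1a1 had an r of -0.74 (rho -0.66, p = 0.0057, adjusted p = 0.0091), -0.80 without these 2, and -0.85 and -0.82 within the ranges. At or below its r over the 12 libraries lay 21.3% of genes, so it too stood within a broad crowd. For Cyp1b1 the r was 0.31 (rho -0.0070, p = 0.32, adjusted p = 0.37), and it turned to -0.15 without SNx 1 alone and to -0.22 without these 2.

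Measures of injury were set beside Arntl2 next. Lcn2, which encodes the tubular injury protein NGAL, had an r of 0.94 (rho 0.90, p = 6e-05, adjusted p = 0.00024), 0.91 without these 2, and 0.97 and 0.86 within the ranges. Spp1, encoding osteopontin, had 0.87 (rho 0.89, p = 0.00038, adjusted p = 0.0010), 0.88 without these 2, and 0.90 and 0.81 within the ranges. Clu, encoding the chaperone clusterin, had 0.80 (rho 0.66, p = 0.0019, adjusted p = 0.0039), 0.87 without these 2, and 0.91 and 0.79 within the ranges. Slc3a1, an amino acid transporter subunit of the proximal tubule, had -0.95 (rho -0.98, p = 1e-05, adjusted p = 5.33e-05), -0.90 without these 2, and -0.98 and -0.86 within the ranges. At least as high an r with Arntl2 was found in 0.812% of genes for Lcn2, 5.04% for Spp1 and 11.7% for Clu. For Slc3a1, 1.61% of genes had an r at or below its own. For the fibrillar collagen Col3a1 no relation passed. The r was 0.38 (rho 0.21, p = 0.23, adjusted p = 0.28), and it was -0.096 without SNx 1 alone and -0.23 without these 2.

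**Figure D3:**
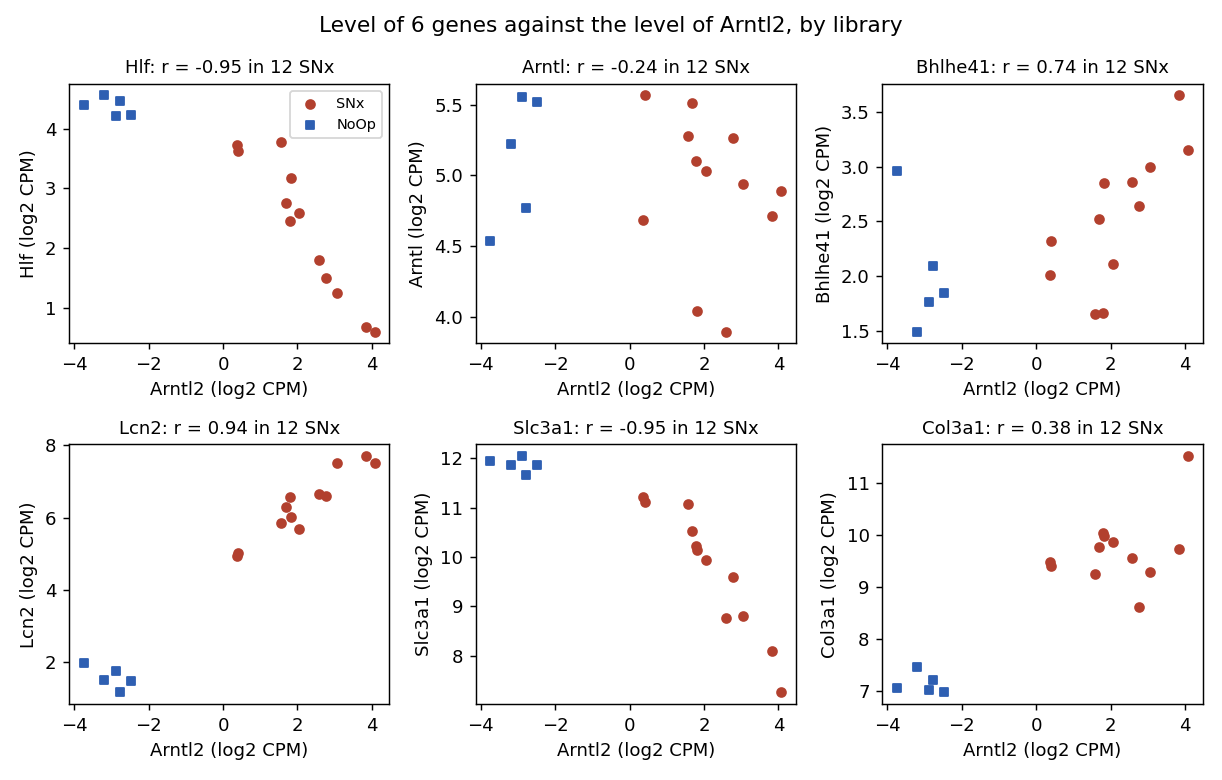
Levels of Hlf, Arntl, Bhlhe41, Lcn2, Slc3a1 and Col3a1 against the level of Arntl2, all in log2 CPM, 1 point per library, with SNx as red circles (n = 12) and NoOp as blue squares (n = 5). Within SNx, Hlf and Slc3a1 fall and Lcn2 rises with Arntl2 (r of -0.95, -0.95 and 0.94), Bhlhe41 rises less closely (0.74), and Arntl and Col3a1 show no relation that passed the test.

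The first principal component (PC1) of the tested genes over the 17 libraries held 60.4% of the variance. Within SNx, Arntl2 had an r of -0.97 with it (rho -0.96, p = 1e-05, adjusted p = 5.33e-05), -0.94 without these 2, and -0.99 and -0.92 within the ranges. PC1 was signed so that the controls score higher on average than SNx. The libraries with the most and second most Arntl2, SNx 1 and SNx 5, had the lowest and second lowest score. In falling order of Arntl2, SNx 2, 9, 4 and 11 held the last 4 places. They also had the 4 highest scores among SNx, rising in that order. An r with PC1 at least as far from 0 was found in 403 of the 13185 genes (3.06%). The library total had an r of -0.57 with Arntl2 (rho -0.59, p = 0.054, adjusted p = 0.073), and -0.75 without SNx 11 (adjusted p = 0.015). It was -0.82 within the lower range and -0.20 within the higher, and neither passed. The part of depth in these relations was not tested.

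Cell type markers were set beside Arntl2, and their part in its level was not tested. Over the 12 SNx libraries the summed level of the proximal tubule markers had an r of -0.93 with Arntl2, that of the macrophage markers 0.58, that of the fibroblast and mural markers 0.58 and that of the T and B cell markers -0.0097. The counts of markers that passed stand beside 30.3% of all tested genes higher and 27.7% lower, and the markers have a symbol only through the study's lists of changed transcripts. Of 8 proximal tubule markers 7 had an identifier, and all were lower in SNx. Of these, Slc34a1, the proximal sodium-phosphate cotransporter, passed narrowly (edgeR adjusted p = 0.038) and was past the threshold in 17 of 26 alternatives, while the organic anion transporters Slc22a6 and Slc22a8 were in 25 of 26 each, failing with the lower number range alone. The summed level of the 7 was 1592 to 14886 CPM in SNx and 20163 to 23799 in NoOp, their r with Arntl2 ran from -0.68 to -0.96, and none was at 0 in any library. Of 7 macrophage markers 6 had an identifier and all were higher, with 160 to 457 CPM summed in SNx and 67.9 to 100.2 in NoOp. Their r ran from -0.11 for Adgre1 (the F4/80 antigen) to 0.96 for Cd14 (the lipopolysaccharide co-receptor). Of 10 T and B cell markers Cd4, Cd2 and Cd79b had one, all higher, with 44 to 96.5 CPM summed in SNx and 16.0 to 27.6 in NoOp, and an r from -0.61 to 0.29. Of 7 fibroblast and mural markers Postn and Col1a1 had one, both higher, with 420 to 5929 CPM summed in SNx and 89.0 to 103 in NoOp and an r of 0.73 and 0.58. Both rest heavily on SNx 1: Col1a1 was at 12.50 log2 CPM there and next highest at 10.04 in SNx 5. Postn was at 6.95 in SNx 1 and next highest at 4.58 in SNx 10. By rho the summed level had 0.54 with Arntl2 for these markers and 0.43 for the macrophage markers. None of the endothelial, glomerular, distal tubule and collecting duct or neutrophil markers listed had an identifier. For all samples together the study reports a wide range of RNA integrity that reaches very low values. RNA integrity is not given per library in the sources used here, and its part in these relations was not tested.

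The named genes most like Arntl2 over the 12 SNx libraries, by Pearson's r among 1898 genes with a symbol, were Sh3bp2, Runx1, Nfkbiz, Tfdp1, Bak1, Alpk1, Axl, Pdlim4, Irak3 and Vasp, all with an r of 0.97. Sh3bp2, an adaptor protein, ran from 4.87 log2 CPM in SNx 11 to 6.90 in SNx 1, and had 3.64 to 4.30 in NoOp. Runx1, a transcription factor best known from blood formation, ran from 3.95 in SNx 11 to 6.69 in SNx 1, and had 2.11 to 2.39 in NoOp. Nfkbiz, a nuclear partner of NF-kappaB, ran from 4.83 in SNx 11 to 7.48 in SNx 5, and had 3.39 to 3.60 in NoOp. Irak3 restrains Toll-like receptor signalling, Alpk1 is a kinase that senses bacterial sugars, Axl is a receptor tyrosine kinase that recognises dying cells, Bak1 promotes apoptosis, Tfdp1 is the partner of E2F factors, and Vasp and Pdlim4 act at the actin cytoskeleton.

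The genes least like it were Ell3 (r = -0.99), Sardh and Id4 (-0.98), and Pyroxd2 and Rufy3 (-0.97). Ell3, a relative of transcription elongation factors, ran from 2.69 log2 CPM in SNx 1 to 4.73 in SNx 4 and had 5.19 to 5.49 in NoOp. Sardh is the mitochondrial sarcosine dehydrogenase, and Id4 is a helix-loop-helix protein without a DNA-binding region. These 15 were higher and lower in SNx as genes so graded were in general: of the 412 genes with an r above 0.9, 93.9% passed as higher in SNx, and of the 934 with an r below -0.9, 95.9% passed as lower, beside 30.3% and 27.7% of all tested genes. The choice of these 15 rests on small differences of r: 3 of the 15 were also picked when all 17 libraries were used and 2 with Spearman's rho.

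**Figure D4:**
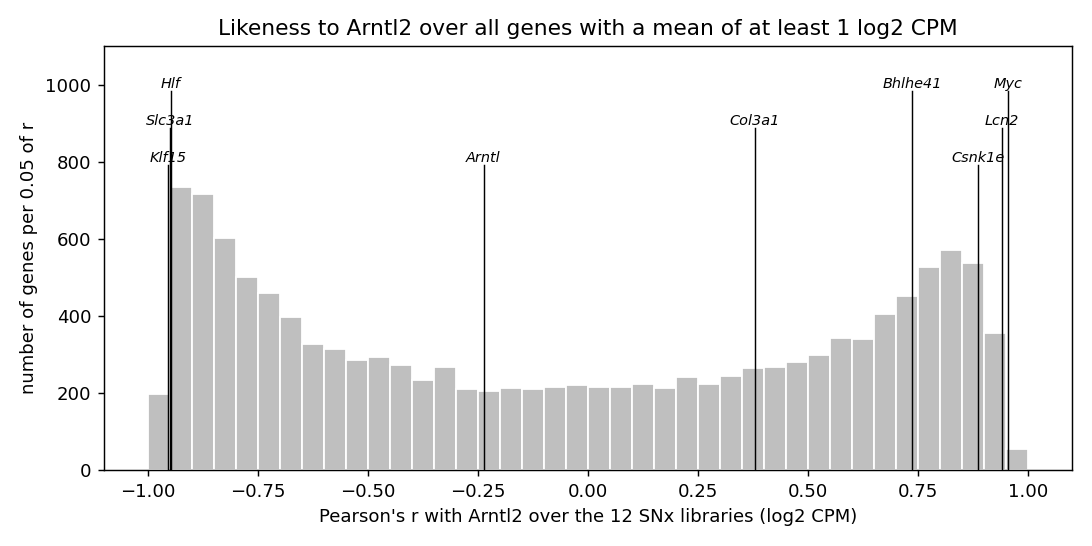
Number of genes (of 13185) by Pearson's r with Arntl2 over the 12 SNx libraries, in bins of 0.05 on log2 CPM, with 9 named genes marked by vertical lines whose height has no meaning. The distribution piles up at both ends, Arntl (-0.24) stands in its sparse middle, and Hlf (-0.95) and Lcn2 (0.94) stand near its ends.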

How the data were processed

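Per the study's methods and the extraction protocol in the labels, kidney RNA was depleted of ribosomal RNA and sequenced as paired-end, strand-specific libraries. The labels' molecule field reads polyA RNA instead. The authors quantified reads against Rn6 (the submitters' processing notes name Salmon and limma), summarised them to genes and deposited estimated counts per gene, all whole numbers. They also deposited log2 normalized values for 13318 genes, per the labels made with limma. The 34 columns of the whole-series tables were not used.

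Rounded estimated counts of all 17 libraries were filtered with filterByExpr, scaled with TMM and tested with edgeR 4.0.16 in R 4.3.3 (glmQLFit, glmQLFTest, two-sided, Benjamini-Hochberg over 15438 genes, threshold 0.05). Levels are log2 CPM with a prior count of 2. As alternatives, limma 3.58.1 was run on voom-transformed counts and on the deposited values, beside DESeq2 1.42.0, other scalings and filters, either range of library numbers and each library left out. The tests were tried on simulated data. P-values measure the spread between libraries, taken as 1 per rat.

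The members and lists were chosen with earlier results of these data known. Some genes of the lists are not reported here. Named genes were Arntl2, list members with a symbol, and the 10 genes with the highest and 5 with the lowest r with Arntl2. Symbols came from the study's lists of changed transcripts, and none of the values in those lists was used. Promoter windows are RefSeq's, build GRCr8. Figures were drawn with matplotlib 3.10.9.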

Additional observations from a re-analysis of the deposited data

Results flagged for a closer look

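Among the genes named, 52 sets of 5 control values were screened for a library far from the other 4, and 4 stood out by Dixon's criterion, where chance gives about 2.6 (1 in 20). Aqp1, the water channel of the proximal tubule, was at 10.99 log2 CPM in NoOp 1 and at 11.49 to 11.68 in the other controls, and its log2 fold change was -1.79 with NoOp 1 left out. Adgre1 was at 2.71 in NoOp 5 and at 3.53 to 3.79 in the others, and its log2 fold change was 0.84 with NoOp 5 left out. Tfdp1 was at 4.99 in NoOp 2 (5.16 to 5.21 in the others) and Ell3 at 5.49 in the same library (5.19 to 5.26 in the others), and without NoOp 2 the log2 fold changes were 0.52 and -1.34. All 4 calls passed an adjusted p of 0.05 in edgeR without the library in question. The SNx group, with 12 libraries, was not screened.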

How the results depend on the processing

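The difference in mean log2 CPM of Arntl2 was 5.18, and 5.30 with library size alone, 6.17 with a prior count of 0.5 and 6.17 on the deposited values. The number of genes called was 8949, between 7317 and 9734 under 26 alternatives and between 7914 and 9438 with 1 library left out; DESeq2 called 9734 and limma-voom 9004. The clock genes called were 4 under all alternatives but 2 (5 without NoOp 4 or with the lower range alone). Of 1323 comparisons for 51 single genes, 1309 kept direction and side of the threshold, 11 fell below it (Slc34a1, Slc22a6 and Slc22a8), 2 rose above it (Bhlhe41) and 1 changed sign: Arntl with library size alone (0.0059), which passed the threshold in neither form. Within the 6 libraries of the higher range the relations with Arntl2 no longer passed after adjustment: Hlf -0.878, Bhlhe41 0.619, Timeless 0.641, Csnk1e 0.769, Cyp1a1 -0.822, Lcn2 0.859, Clu 0.785, Spp1 0.812, Slc3a1 -0.858 and PC1 -0.919. Cyp1b1 (-0.385) and Col3a1 (-0.291) changed sign there. In the lower range Cyp1a1 (-0.849) no longer passed. By rho Cyp1b1 was -0.0070. With 6 libraries the smallest exact p is 0.0014 before adjustment. With 1 SNx library left out the relation ran from -0.153 to 0.449 for Cyp1b1, from -0.096 to 0.538 for Col3a1 and from -0.754 to -0.481 for the library total, and the other relations kept direction and side. Of the 15 genes most or least like Arntl2, 3 were picked with all 17 libraries and 2 by rho. The cause of these shifts was not tested. No paired analysis was made, since the SNx and control rats are separate animals. Depth limits Arntl2 in the controls: 3 counts, the most in any control, equal 0.0776 to 0.107 CPM there. This floor is a chosen bound and not a measured limit of detection.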
